A study of Mus musculus with 2 samples.

Results

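The 9 genes described here code for 8 secreted ADAMTS proteases (Adamts1, Adamts4, Adamts5, Adamts9, Adamts10, Adamts12, Adamts15 and Adamts16) and for the membrane-anchored relative Adam12. They were taken by symbol from the 33696 genes that both libraries list, and all 9 were present. Their transcripts were counted in stromal cells of the mammary gland from wild-type C57BL/6 female mice at puberty (4 weeks of age) and in virgin adults (9 weeks). Cells of both stages had been sorted as lineage-negative and CD24-negative (Lin–CD24–), a gate that depletes immune, endothelial, red blood and epithelial cells. The labels give 2 females for each condition without saying how many gave the cells of a library. The 1 library of each stage was marked as replicate 2, so stages could be compared only as 1 library against the other.

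ADAMTS proteases are secreted zinc enzymes with a metalloprotease domain and thrombospondin repeats that hold them in the matrix around the cell. Several of them cut the large proteoglycans versican and aggrecan, and others act on fibrillin microfibrils, fibronectin or cartilage oligomeric matrix protein. ADAM12 (meltrin alpha) sheds surface proteins and cleaves insulin-like growth factor binding proteins, and it is known from muscle, fat and perivascular precursor cells. In the mammary gland, fibroblasts of the fat pad lay down and remodel the matrix through which ducts grow.

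The pubertal library held 21688 cell barcodes and 255274670 unique molecular identifiers (UMIs, each 1 captured transcript), and the adult library held 23183 barcodes and 259549498 UMIs. After cells with under 500 genes or over 10% mitochondrial UMIs were left out, 21534 and 22972 cells remained. Of these, 18878 and 20999 had at least 1 UMI of Pdgfra, the receptor that marks fibroblasts, and are called Pdgfra+ cells. All 5 fibroblast markers (Dcn, Lum, Col1a1, Col1a2 and Pdgfra itself) were detected in these cells, with a summed level of 30436 and 25433 UMIs per 1000000 UMIs of the same cells (CPM), against 93.1 and 55.6 CPM for 7 pericyte or smooth muscle markers. The libraries shared 145 barcodes, and leaving these out moved none of the counts of members given below. With 1 library per stage there was no test, and the 95% intervals below cover counting error only, not the spread between animals.

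Within the Pdgfra+ cells 5 overlapping subsets were read by their gene signature. These were Pi16+Dpp4+ cells (the signature of adventitial progenitor fibroblasts), cells with Gdf10 or Fmo2, cells with Thbs4 or Bmp5, cells with at least 2 UMIs of the fatty acid carrier Fabp4, and cells with the retinoic acid carrier Crabp1. The overlap was wide, since 55.9% of pubertal and 30.4% of adult Gdf10 or Fmo2 cells were also Pi16+Dpp4+. Levels by subset are therefore given for cells that met 1 signature only, which numbered 9333 and 4693 for Pi16+Dpp4+, 2200 and 3912 for Gdf10 or Fmo2, 261 and 873 for Thbs4 or Bmp5, 486 and 510 for Fabp4, and 100 and 1042 for Crabp1. Mural cells, which wrap blood vessels, were taken as Pdgfra-negative cells with Myh11 or Rgs5 and numbered 783 and 457.

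The genes lie apart on 8 chromosomes (mouse build GRCm38, which is mm10, RefSeq coordinates). Adamts1 (ENSMUSG00000022893, chr16:85793827-85803113) and Adamts5 (ENSMUSG00000022894, chr16:85858157-85901125) are neighbours on the minus strand, 55043 bases apart, with no protein-coding gene between them. Adamts4 lies at chr1:171250129-171262267. Adamts9 (chr6:92772699-92944450), Adamts16 (chr13:70727798-70841845) and Adam12 (chr7:133883199-134225097) overlap other annotated genes. Adamts10 (chr17:33523646-33553782), Adamts12 (chr15:11064773-11349232) and Adamts15 (chr9:30899155-30922452) do not. RefSeq promoters were at hand for 3 of the 9, Adamts1, Adamts9 and Adamts12. The 250 bases before the start are shown for Adamts1 (chr16:85803114-85803363, minus strand) and Adamts12 (chr15:11064523-11064772, plus strand), because these members had many UMIs and stood on opposite sides of the comparison of stages below. Capitals mark matches, on either strand, to the motifs TGANTCA of AP-1 factors, TGACGTCA of the cyclic AMP response, AAGGTCA of NR4A receptors, TATAAA of the core promoter, GGGCGG of Sp1 factors, CCAAT of nuclear factor Y, and the CArG box, and no matches overlap here.
Adamts1: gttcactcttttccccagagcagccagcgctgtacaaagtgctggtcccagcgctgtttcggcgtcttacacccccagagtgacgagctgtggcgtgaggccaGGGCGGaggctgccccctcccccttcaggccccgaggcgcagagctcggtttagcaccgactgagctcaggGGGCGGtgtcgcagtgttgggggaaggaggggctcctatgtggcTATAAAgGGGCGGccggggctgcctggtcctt
Adamts12: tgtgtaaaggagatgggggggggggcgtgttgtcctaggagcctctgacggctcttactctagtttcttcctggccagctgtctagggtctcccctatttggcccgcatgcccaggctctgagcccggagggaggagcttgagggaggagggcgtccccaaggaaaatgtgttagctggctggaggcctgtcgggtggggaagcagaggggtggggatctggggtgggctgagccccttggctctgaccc
The Adamts1 sequence held a TATAAA from 32 to 27 bases before the start, a motif found in 13.0% of 27025 RefSeq promoters of the same length, and 3 GGGCGG motifs, of a kind found in 32.9%. None of the 7 motifs was in the Adamts12 sequence, which says only that these letters are not in this window.

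In Pdgfra+ cells Adamts12 and Adam12 were higher in the adult, Adamts1 and Adamts9 were lower, and Adamts5 and Adamts15 were at nearly the same level. Adamts1, an inducible protease that cuts versican and restrains vessel growth, measured 1344 CPM at puberty and 736 CPM in the adult, a ratio of 0.548 (95% interval 0.545 to 0.551). Adamts9, another versican-cutting member, measured 111 and 55.5 CPM, a ratio of 0.500 (0.489 to 0.510). These were the only members with at least 1.5-fold less in the adult, 2 of 9, against 6.97% of the 13604 genes compared.

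Adamts12, which cuts cartilage oligomeric matrix protein, went the other way, with 423 CPM at puberty and 927 CPM in the adult, a ratio of 2.19 (2.17 to 2.20). Adam12 measured 133 and 387 CPM, a ratio of 2.92 (2.88 to 2.95). Adamts4, one of the aggrecanases, measured 34.7 and 52.8 CPM, a ratio of 1.52 (1.48 to 1.56). These 3 of 9 members were at least 1.5-fold higher in the adult, against 17.7% of all genes compared, and Adamts4 was under that fold once the libraries were scaled by TMM (log2 ratio 0.46) or by the median of ratios (0.45). With equal weight for the 5 exclusive subsets, Adam12 was also under 1.5-fold (ratio 1.21) and Adamts4 was lower in the adult (0.738).

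The other 4 members stayed under 1.5-fold. Adamts5, the main aggrecanase of mouse cartilage, measured 771 and 820 CPM, a log2 ratio of 0.09 that became -0.05 with TMM and -0.07 with the median of ratios. Adamts10, which associates with fibrillin microfibrils, measured 29.3 and 40.8 CPM (ratio 1.39, 1.35 to 1.44). Adamts15, a versican-cutting member, measured 43.0 and 41.8 CPM (ratio 0.972, 0.945 to 0.999). Adamts16, which has been tied to fibronectin cleavage, measured 19.5 and 15.3 CPM (ratio 0.784, 0.751 to 0.819). The median log2 ratio of the 9 was 0.09 and that of all genes compared was 0.17, so ratios near 1 lie slightly below the typical gene. A UMI count is not scaled by transcript length, so levels are compared between cells and stages and not between genes.

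**Figure D1:**
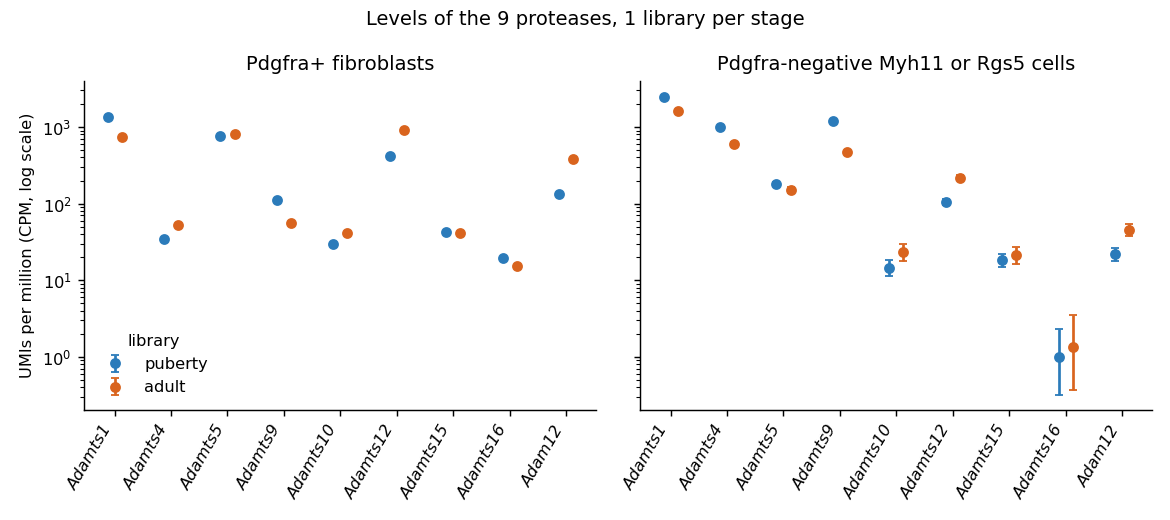
Level of each of the 9 genes in CPM (log scale) in the pubertal and the adult library, in Pdgfra+ cells (left) and in Pdgfra-negative Myh11 or Rgs5 cells (right). Points are 1 library each and bars are 95% Poisson intervals, and the right panel shows Adamts4 at 998 and 607 CPM against 34.7 and 52.8 CPM on the left.

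The share of Pdgfra+ cells with at least 1 UMI differed between stages in the direction of the level for Adam12, Adamts12, Adamts1 and Adamts9. Adam12 was detected in 19.5% of pubertal and 40.4% of adult cells, and in 12.9% and 30.7% after each cell was thinned to 3000 UMIs, which left out 336 and 426 shallower cells. In mural cells the thinned shares of Adam12 were 1.79% and 4.28%. Adamts1 was detected in 82.3% and 63.8% of thinned Pdgfra+ cells, Adamts9 in 15.8% and 10.3%, and Adamts12 in 59.8% and 77.6%. Adamts16 was detected in 5.03% and 3.40% of thinned Pdgfra+ cells against 0.275% and 0.267% of mural cells. Median depth was 12187 and 11265 UMIs in Pdgfra+ cells and 6334 and 6126 UMIs in mural cells.

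Among the fibroblast subsets Adamts16 was found almost entirely in Pi16+Dpp4+ cells. Its level in cells with that signature only was 32.1 CPM at puberty and 48.7 CPM in the adult. In the 4 other subsets it was at most 2.37 CPM, and in adult Thbs4 or Bmp5 only cells no UMI was seen among 873 cells, which allows up to 0.354 CPM. Over all cells with the signature it was 46.0-fold (32.2 to 68.3) and 106-fold (76.8 to 151) the level of the other Pdgfra+ cells. It was the only member at least 2-fold higher in Pi16+Dpp4+ cells in both libraries, 1 of 9 against 4.38% of 13236 genes compared. Adamts4, Adamts9, Adamts12 and Adam12 were at least 2-fold lower there in both libraries, 4 of 9 against 7.23%.

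Detection, read from the same UMIs, gave the same picture. After thinning, 8.25% (7.70 to 8.83) of pubertal and 11.3% (10.4 to 12.3) of adult Pi16+Dpp4+ only cells held an Adamts16 UMI, and in the 4 other subsets the share was at most 0.195%. Outside the Pdgfra+ cells, the 1873 and 1516 Pdgfra-negative cells with neither Myh11 nor Rgs5 also held Adamts16, at 32.7 and 27.3 CPM and in 8.22% and 5.17% of thinned cells, and 4 of the 5 fibroblast markers summed to 25084 and 17426 CPM there. The level also went up with the number of Pi16 and Dpp4 UMIs that a cell held after thinning to 3000 UMIs. These 2 genes also defined the subset, and this grouping was chosen after the data were seen. At puberty Adamts16 was at 0.648 CPM in Pdgfra+ cells with none, 20.8 CPM with 4 to 7 and 70.9 CPM with 16 or more. In the adult the matching levels were 0.233, 19.7 and 106 CPM. At 4 to 7 UMIs the intervals of both libraries overlapped (18.6 to 23.1 and 16.5 to 23.4), and at 16 or more they did not (58.5 to 85.3 and 94.9 to 118).

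Adamts5 was broad but also highest in Pi16+Dpp4+ only cells, where it measured 903 CPM at puberty and 1186 CPM in the adult. It was next highest in Fabp4 only cells (720 and 927 CPM) and lowest among fibroblasts in Crabp1 only cells (209 and 284 CPM). Over all Pi16+Dpp4+ cells it was 1.72- and 1.84-fold the other Pdgfra+ cells, short of the 2-fold mark. In the same thinned cells its level also went up with Pi16 and Dpp4 UMIs, from 492 CPM with none to 1078 CPM with 16 or more at puberty, and from 547 to 1374 CPM in the adult.

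**Figure D2:**
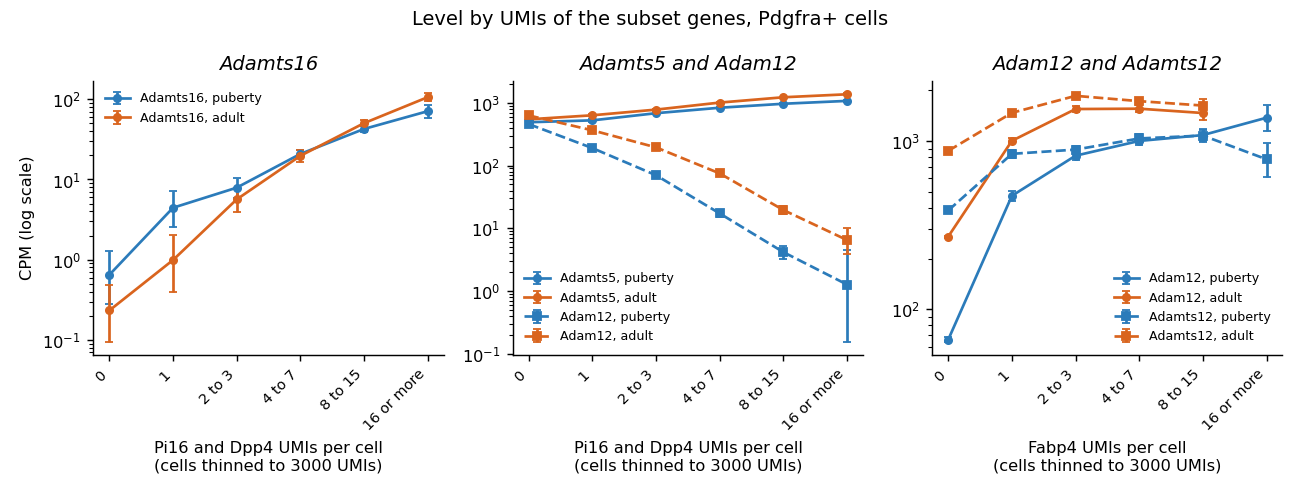
Level in CPM (log scale) of 4 members in Pdgfra+ cells thinned to 3000 UMIs and then grouped by their summed Pi16 and Dpp4 UMIs (left and middle) or their Fabp4 UMIs (right), for the pubertal and the adult library. The grouping was chosen after the data were seen. Bars are 95% Poisson intervals, and bins under 20 cells are not drawn. Adamts16 and Adamts5 climb with Pi16 and Dpp4 UMIs while Adam12 goes from 459 to 1.26 CPM at puberty and from 631 to 6.47 CPM in the adult.

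Adam12, like Adamts4 and Adamts12, was lowest among the exclusive fibroblast subsets in the subset where Adamts16 was highest. It was highest in Fabp4 only cells, at 977 CPM at puberty and 1424 CPM in the adult, and lowest in Pi16+Dpp4+ only cells, at 13.0 and 37.7 CPM. In Crabp1 only cells it measured 736 and 424 CPM, in Gdf10 or Fmo2 only cells 161 and 408 CPM, and in Thbs4 or Bmp5 only cells 63.8 and 56.9 CPM. Over all cells with at least 2 Fabp4 UMIs it was 12.4-fold (12.1 to 12.7) and 5.44-fold (5.37 to 5.51) the other Pdgfra+ cells. After thinning, 81.7% and 87.5% of Fabp4 only cells held an Adam12 UMI, against 2.06% and 4.37% of Pi16+Dpp4+ only cells.

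Cells with Fabp4 carried markers of fat cells at a low level. The 4 adipocyte markers (Adipoq, Plin1, Cidec and Plin4) summed to 24.2 and 21.8 CPM in Fabp4 only cells, with Cidec at 0 at puberty. They summed to at most 1.91 CPM in the other exclusive subsets, but to 55.5 and 41.2 CPM in mural cells. The 7 pericyte or smooth muscle markers summed to 688 CPM in all pubertal and 258 CPM in all adult cells of the Fabp4 subset, and to 209 and 164 CPM in Fabp4 only cells, and their part in these results was not tested. Adam12 itself was low in mural cells, at 21.8 and 45.3 CPM. Among Pdgfra+ cells thinned to 3000 UMIs, Adam12 went up with the Fabp4 UMIs left in the cell at puberty, from 65.9 CPM in cells with none to 1374 CPM in cells with 16 or more. In the adult it was 270 CPM in cells with none and between 1465 and 1555 CPM in cells with 2 to 15.

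Adamts12 was spread over more subsets. It was highest in Fabp4 only cells (956 and 1705 CPM) and next in Crabp1 only cells (932 and 1380 CPM), and it was lowest among fibroblasts in Pi16+Dpp4+ only cells (263 and 412 CPM). Together with Adam12 and Adamts4 it was at least 2-fold higher in all Fabp4 cells in both libraries, 3 of 9 members against 2.84% of 13156 genes compared. The call of Adamts12 sat at the mark, with ratios of 2.35 and 2.02, and it was lost in Fabp4 only cells (2.33 and 1.88). The call of Adamts4 was lost there too, with ratios of 3.48 and 1.58 against 5.34 and 2.10 in all Fabp4 cells.

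Adamts4 among fibroblasts was highest in Crabp1 only cells, at 188 CPM at puberty and 107 CPM in the adult, and next in Fabp4 only cells, at 114 and 82.1 CPM. It was lowest in Pi16+Dpp4+ only cells, at 11.9 and 13.5 CPM. It was the only member at least 2-fold higher in all Crabp1 cells in both libraries (4.73- and 2.33-fold), 1 of 9 against 5.50% of 13308 genes compared. Mural cells held far more of this transcript, and the 7 pericyte or smooth muscle markers were also higher in Crabp1 only cells at puberty (320 CPM) than in the adult (36.8 CPM). Their part in the Adamts4 levels was not tested.

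Adamts9 was also lowest in Pi16+Dpp4+ only cells at puberty, at 71.0 CPM, and measured 144 to 285 CPM in the 4 other subsets. In the adult it measured 34.3 CPM there, 28.9 CPM in Thbs4 or Bmp5 only cells and 67.5 to 97.7 CPM in the other 3. No member was at least 2-fold higher in Thbs4 or Bmp5 cells in both libraries (0 of 9 against 2.53% of genes compared), nor in Gdf10 or Fmo2 cells (0 of 9 against 1.13%).

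No exclusive subset was 2-fold higher for Adamts1, Adamts10 or Adamts15 in both libraries, and the same held for Adamts5, Adamts9 and Adamts12. Adamts1 was between 976 and 1328 CPM at puberty and between 705 and 776 CPM in the adult in 4 subsets, and lower in Crabp1 only cells (619 and 438 CPM). Adamts10 was highest in Gdf10 or Fmo2 only cells (56.1 and 56.2 CPM) and in Thbs4 or Bmp5 only cells (56.2 and 51.2 CPM). Adamts15 was between 23.4 and 48.1 CPM in all 5 subsets of both libraries. Ordered over the 5 subsets and the mural cells, the intervals of neighbouring levels of Adamts15 overlapped in 5 of 5 pairs at puberty and 4 of 5 in the adult, whereas those of Adam12 at puberty and of Adamts4, Adamts5 and Adamts12 in the adult overlapped in 0 of 5.

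**Figure D3:**
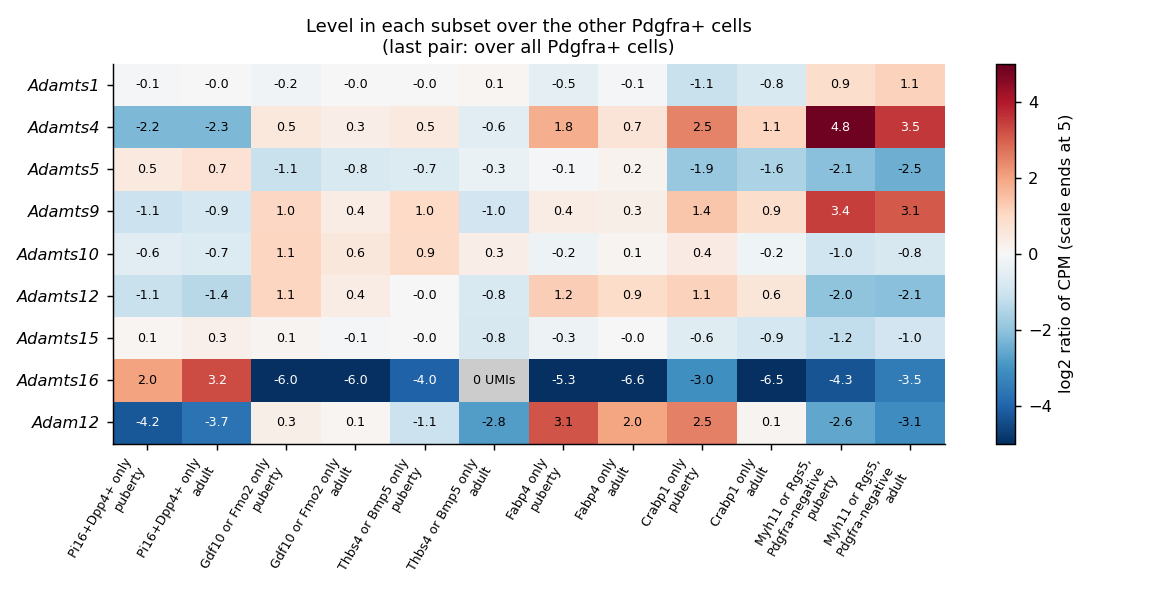
Log2 ratio of each gene's CPM in cells of 1 subset only over all other Pdgfra+ cells, and in Pdgfra-negative Myh11 or Rgs5 cells over all Pdgfra+ cells (last pair of columns), for each library. Colours run from blue (lower) to red (higher), and grey marks a group with no UMI. Adamts16 is red only in the Pi16+Dpp4+ only columns (2.02 and 3.25), Adam12 is reddest in the Fabp4 only columns (3.14 and 1.99), and Adamts4 and Adamts9 are reddest in the last pair.

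**Figure D4:**
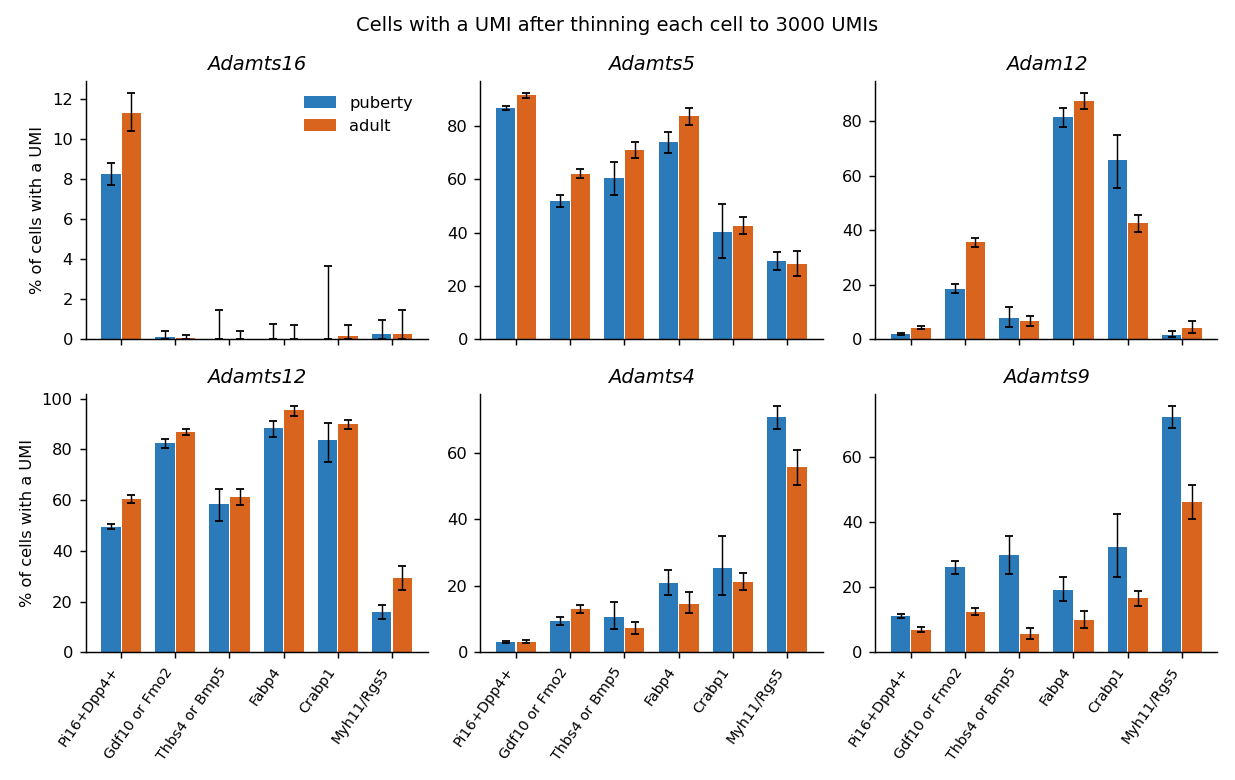
Share of cells with at least 1 UMI (%), after each cell was thinned to 3000 UMIs, for 6 members in the 5 exclusive fibroblast subsets and in Pdgfra-negative Myh11 or Rgs5 cells of each library. Bars start at 0 and error bars are 95% Clopper-Pearson intervals. Adamts16 stands at 8.25% and 11.3% in Pi16+Dpp4+ only cells and at or near 0 elsewhere, and Adamts4 reaches 70.7% and 55.6% in the mural cells.

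In mural cells Adamts4, Adamts9 and Adamts1 were higher than in fibroblasts, and the other 6 members were lower. Adamts4 measured 998 CPM at puberty and 607 CPM in the adult, 28.7-fold (27.7 to 29.8) and 11.5-fold (10.9 to 12.1) its level in Pdgfra+ cells. Adamts9 measured 1206 and 468 CPM, 10.9-fold (10.6 to 11.2) and 8.43-fold (7.97 to 8.91). These 2 of 9 members passed 2-fold in both libraries, against 15.8% of 13830 genes compared. Adamts1 measured 2498 and 1631 CPM, 1.86- and 2.21-fold.

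Detection, read from the same UMIs, pointed the same way. After thinning, 70.7% and 55.6% of mural cells held an Adamts4 UMI, against 6.66% and 10.9% of Pdgfra+ cells. Adamts9 was detected in 72.6% and 46.3% of thinned mural cells. In cells with both Myh11 and Rgs5 (278 and 208 cells) Adamts4 measured 1205 and 782 CPM and Adamts9 1483 and 548 CPM. Adamts5, Adamts12, Adamts16 and Adam12 were at least 2-fold lower in mural than in Pdgfra+ cells in both libraries, 4 of 9 against 14.0% of genes compared. Of these Adamts5 measured 180 and 150 CPM and Adamts12 105 and 219 CPM in mural cells.

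All 7 pericyte or smooth muscle markers were detected in the mural cells and summed to 21716 and 18648 CPM, of which Myh11 and Rgs5 had chosen the cells. Of the 5 that had not, Acta2 measured 7041 and 5244 CPM, Tagln 6394 and 4689 CPM, and Mcam, Notch3 and Cspg4 134 to 493 CPM. Of the 5 fibroblast markers 4 were also detected, summing to 3361 and 1130 CPM, and Dcn measured 883 and 521 CPM against 7843 and 11207 CPM in Pdgfra+ cells. The 5 epithelial markers (Epcam, Krt8, Krt18, Krt14 and Krt5) summed to 34.9 CPM at puberty and 610 CPM in the adult, and the part of these or of the fibroblast markers in the mural levels was not tested beyond the values that follow. In cells with both Myh11 and Rgs5 they summed to 0.577 and 0 CPM. Among mural cells with no epithelial UMI, 774 and 427 in number, Adamts4 measured 1009 and 694 CPM and Adamts9 1216 and 517 CPM. The few cells with Rgs5 and no Myh11, 27 and 65 in number, were mixed by their markers. Their fibroblast markers summed to 21644.5 and 5200 CPM and their pericyte or smooth muscle markers to 1837 and 3923 CPM. The 5 endothelial markers summed to 290 and 1043 CPM. Of the cells split by Myh11 and Rgs5, only these had more Adamts9 in the adult (265 and 733 CPM). The part of the differing markers in this was not tested.

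All 3 members that were high in mural cells were lower there in the adult library. The ratio of adult over puberty was 0.653 (0.632 to 0.675) for Adamts1, 0.608 (0.576 to 0.642) for Adamts4 and 0.388 (0.366 to 0.411) for Adamts9. These 3 of 9 members were at least 1.5-fold lower, against 9.04% of 14757 genes compared in mural cells. Adamts10, Adamts12 and Adam12 were at least 1.5-fold higher (ratios 1.60, 2.08 and 2.08), 3 of 9 against 29.0%. The median of all genes was 0.21 on the log2 scale. The Adamts12 ratio was 4.18 (3.34 to 5.26) in cells with both Myh11 and Rgs5. With Myh11 and no Rgs5 it was 0.903 (0.736 to 1.10), and with Rgs5 and no Myh11 1.25 (0.982 to 1.60). Among cells with no epithelial UMI the ratios were 0.731, 0.688 and 0.425 for Adamts1, Adamts4 and Adamts9, and 1.42 for Adam12. Adamts4 was thus higher in the adult over all Pdgfra+ cells and lower in the adult in mural cells. Among exclusive fibroblast subsets it was also lower in Thbs4 or Bmp5 only (0.739), Fabp4 only (0.723) and Crabp1 only cells (0.569). It was higher in Gdf10 or Fmo2 only (1.33) and Pi16+Dpp4+ only cells (1.13). The difference between the groups was not tested.

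Within single fibroblast subsets the comparison of stages kept its direction for Adamts1, Adamts9 and Adamts12 in 5 of 5 subsets, for all 3 by more than the median of all genes. Adamts1 ratios lay between 0.553 (Pi16+Dpp4+ only) and 0.722 (Fabp4 only). Adamts9 ratios lay between 0.339 and 0.483 in 4 subsets and at 0.131 (0.112 to 0.153) in Thbs4 or Bmp5 only cells, where the level was 220 CPM at puberty and 28.9 CPM in the adult. The 7 pericyte or smooth muscle markers were also lower in the adult, at 74.5 and 37.1 CPM in Thbs4 or Bmp5 only cells and 320 and 36.8 CPM in Crabp1 only cells, and their part in the Adamts9 ratios was not tested. Adamts12 ratios lay between 1.33 and 1.78. Adamts5 was higher in the adult in every subset, with ratios between 1.29 and 1.39, although it was almost level over all Pdgfra+ cells.

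Adam12 was not uniform. It was higher in the adult in Pi16+Dpp4+ only (2.89), Gdf10 or Fmo2 only (2.54) and Fabp4 only cells (1.46), near level in Thbs4 or Bmp5 only cells (0.892, 0.745 to 1.07) and lower in Crabp1 only cells (0.575, 0.536 to 0.618). The pubertal Crabp1 only group held 100 cells. Adamts4 was higher in the adult in Gdf10 or Fmo2 only cells (1.33, 1.24 to 1.43), close to the all-gene median in Pi16+Dpp4+ only cells (1.13, 1.04 to 1.24), and lower in Thbs4 or Bmp5 only (0.739), Fabp4 only (0.723) and Crabp1 only cells (0.569). Adamts16 was higher in the adult in Pi16+Dpp4+ only cells (1.52, 1.44 to 1.60), the exclusive subset with the highest level.

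The makeup of the Pdgfra+ cells differed between the libraries, and with it part of the pooled ratios. Pi16+Dpp4+ only cells made up 49.4% of Pdgfra+ cells at puberty and 22.3% in the adult, while Crabp1 only cells made up 0.530% and 4.96%. With the pubertal makeup of 7 disjoint groups (the 5 exclusive subsets, cells in several and cells in none) used for both libraries, the ratio of Adamts16 went from 0.784 to 1.36 and that of Adamts4 from 1.52 to 1.12. The ratio of Adam12 went from 2.92 to 2.15, that of Adamts12 from 2.19 to 1.77, that of Adamts5 from 1.06 to 1.25 and that of Adamts9 from 0.500 to 0.422. Adamts1 stayed at 0.553. Membership was read from the UMIs of a few genes, so a cell with few of them can fall outside its subset, and among Pdgfra+ cells that kept at least 4 Pi16 and Dpp4 UMIs after thinning to 3000, 64.4% had 8 or more in the adult and 51.0% at puberty.

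**Figure D5:**
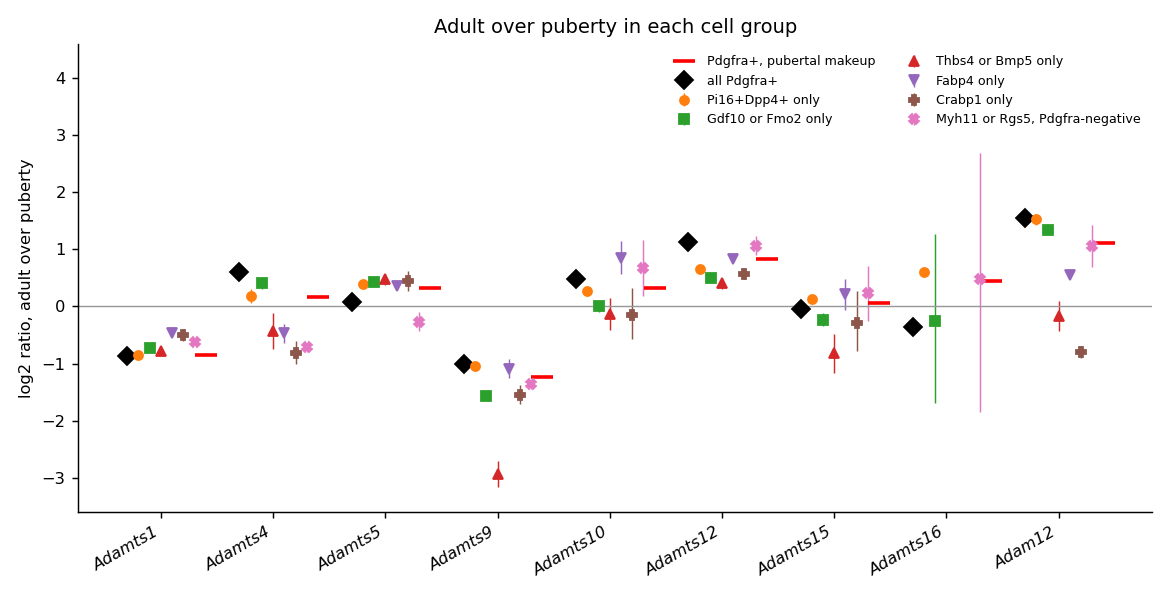
Log2 ratio of adult over pubertal CPM for each gene in all Pdgfra+ cells (black), in each exclusive subset and in Pdgfra-negative Myh11 or Rgs5 cells, with 95% counting intervals. Red dashes give Pdgfra+ cells with the pubertal makeup in both libraries, and ratios of groups with 3 or fewer UMIs in both libraries are not drawn. Adamts1 and Adamts9 lie below 0 in all groups shown, and Adam12 lies on both sides of 0.

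The other ADAMTS genes were mostly rare, and of the 9 that reached 1 CPM in Pdgfra+ cells 7 were at least 1.5-fold higher in the adult and 0 were lower, against the 17.7% and 6.97% of all genes. Adamts17 measured 7.06 and 17.2 CPM (ratio 2.44) and Adamts14, a procollagen N-propeptidase, 7.44 and 17.3 CPM (2.32). Adamts2, the main procollagen N-propeptidase, measured 333 and 302 CPM (0.906), and Adamts19 29.5 and 23.8 CPM (0.804). Of 6 ADAMTS-like genes, whose products lack the protease domain, 2 were at least 1.5-fold higher and 0 lower, against the same shares of all genes. Adamtsl3 was 1 of these, at 49.2 and 75.5 CPM (1.53), and the other stayed under 10 CPM. Adamtsl5 was near level (28.5 and 29.7 CPM, 1.04), while Adamtsl1 measured 614 and 576 CPM and Adamtsl4 53.1 and 40.3 CPM.

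Among other ADAM genes 2 of 8 were at least 1.5-fold higher in the adult, Adam19 (60.7 and 123 CPM) and Adam23 (108 and 180 CPM). In this list 0 were lower, and over all genes compared 17.7% were higher and 6.97% lower. The lowest ratios of the list were near level, with Adam9 at 95.2 and 88.7 CPM and Adam33 at 86.8 and 78.9 CPM. Of 10 measured matrix and growth factor-binding substrates 0 were higher and 2 were lower, against the same shares of all genes. Fibrillin-1 (Fbn1) measured 2634 and 1644 CPM (0.624) and Igfbp3, a substrate of ADAM12, 402 and 156 CPM (0.387). Versican (Vcan) measured 525 and 370 CPM (0.704, 0.698 to 0.710), and it was higher in the adult in Crabp1 only cells (650 and 751 CPM). Dcn and Bgn, small proteoglycans, had ratios of 1.43 and 1.28.

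Of 9 measured inhibitors, clearance receptors and activating enzymes 1 was at least 1.5-fold higher in the adult, against 17.7% of all genes compared. It was the membrane-anchored protease inhibitor Reck (105 and 159 CPM). Timp3, the inhibitor that acts on ADAMTS4, ADAMTS5 and ADAM12, measured 588 and 527 CPM (0.896) in Pdgfra+ cells and 853 and 1274 CPM in mural cells. Lrp1, the receptor that takes up several ADAMTS proteases, measured 433 and 534 CPM (1.23). Timp2 measured 1888 and 1608 CPM (0.852). The early response genes that cell handling can induce, 8 chosen after the data had been seen, lay on both sides in Pdgfra+ cells. Of these, 2 were at least 1.5-fold higher in the adult and 0 lower, against 17.7% and 6.97% of all genes. Their median log2 ratio was 0.32, against 0.17 for all genes compared. Ier2 measured 410 and 836 CPM (ratio 2.04) and Jun 3183 and 5299 CPM (1.66), while Atf3 measured 2074 and 1524 CPM and Nr4a1 189 and 146 CPM, and their part in the levels of Adamts1, Adamts4 and Adamts9 was not tested.

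Over the 5 exclusive subsets of both libraries (10 groups, which share 2 libraries), the pattern of log2 CPM of Adam12 ran with those of Adamts12 (Pearson r = 0.93) and Adamts4 (0.90), and against that of Adamts16 (-0.66). Among 9985 genes of at least 10 CPM the patterns most like Adamts16 were those of Wnt10b (0.983), a Wnt ligand, and Uchl1 (0.982), a deubiquitinase. Those most like Adam12 were Ptger3 (0.975), a prostaglandin E receptor, and Clk1 (0.973), a splicing kinase. Adamts4 ran with Mdk (0.985), a heparin-binding growth factor, and Mmp19 (0.981), a matrix metalloprotease.

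The nearest patterns of the other members had lower or similar likeness. Adamts12 ran with Myh9 (0.981), the nonmuscle myosin heavy chain, and Fam110b (0.969), and Adamts5 with Arl15 (0.973) and Mcu (0.958), the mitochondrial calcium channel. Adamts1 ran with Abtb2 (0.971) and Nsd3 (0.953), Adamts9 with Bend3 (0.923) and the early response nuclear receptor Nr4a3 (0.921), Adamts10 with Gsk3a (0.959) and Ints6l (0.949), and Adamts15 with Tmem241 (0.852) and Rnaseh2a (0.844). These coefficients describe 10 groups, and many genes that share subset or library differences can reach such values.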

How the data were processed

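The authors deposited 1 filtered matrix per library, which holds the raw UMI count of each gene in each cell barcode. The labels name the Chromium GEM-X 3′ chemistry, and the submitters' processing notes name Cell Ranger 8.0.1 and mm10. The study's methods name another kit, Cell Ranger version and pubertal age, and the labels were followed. The annotation release is not given in the sources used here.

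Cells with at least 500 genes and at most 10% mitochondrial UMIs were kept. Counts were summed over cells and scaled to 1000000 UMIs (CPM). Levels have Poisson, shares Clopper-Pearson and ratios conditional binomial 95% intervals, and 3 counts served as the limit where none was seen. A gene was compared from 1 CPM in either group. Doublets were not removed, and an alternative left out the cells scored highest by Scrublet (scanpy 1.11.5). TMM factors came from edgeR 4.0.16. Interval code was tested on simulated data.

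All 9 members were named, and from each related list and the early response genes the 2 highest and 2 lowest ratios from 10 CPM, with Timp3, Vcan and Lrp1, and the 2 nearest patterns per member. The members and lists were chosen with earlier results of these data known. Other libraries of the study were not used here.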

Additional observations from a re-analysis of the deposited data

Results flagged for a closer look

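Adam12 differed between cell groups in its ratio of adult over pubertal CPM. The ratio was 2.89 in Pi16+Dpp4+ only cells, 2.54 in Gdf10 or Fmo2 only cells and 2.08 in Pdgfra-negative Myh11 or Rgs5 cells, and 0.575 in Crabp1 only cells. The intervals of the first 3 lay above 1 and that of the last lay below 1, but with 1 library per stage the difference between the groups was not tested, and the pubertal Crabp1 only group held 100 cells. Samples per group were too few to look for outlying samples.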

How the results depend on the processing

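No paired analysis was possible because each stage had 1 library and both labels carry replicate number 2 alone, and no library could be left out. Most counts of members were within 1.5 times of those reported under the alternatives, 95 of 103 values. Of Adamts4, Adamts12 and Adam12, higher in adult Pdgfra+ cells, 1 (Adamts12) was left with equal weight for each exclusive subset. In that setting the log2 ratio of Adamts4 turned to -0.44. Of Adamts1 and Adamts9, lower in the adult, 1 (Adamts9) passed a fold of 2. With a fold of 1.5 in both libraries 2 members were higher in Pi16+Dpp4+ cells, with Adamts5 added, 1 in Gdf10 or Fmo2 cells (Adam12) and 2 in Crabp1 cells, with Adamts9 added. Of the 3 members higher in Fabp4 cells, 1 (Adam12) was left when every cell's CPM had equal weight, with cells thinned to 3000 UMIs and in cells of exactly 1 subset. The settings with shared barcodes left out, the pubertal makeup and no epithelial UMIs were chosen after seeing the data. So was the grouping of thinned cells by their Pi16 and Dpp4 UMIs or their Fabp4 UMIs. Of 635 alternative values of ratios of at least 1.5-fold, 634 kept their direction. Sizes were less stable. Among the alternative values of all ratios, 669 lay within the counting interval of the reported ratio, 427 lay outside it and 1 was reversed. Apart from the alternatives' own construction, the cause was not tested. Few Adamts16 UMIs limited the ratios of this gene in the 4 other exclusive subsets, where it was near 0. The Crabp1 only group at puberty was limited by its 100 cells, whose median depth was 12341.5 UMIs against 12187 in all pubertal Pdgfra+ cells.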
